A study of Mus musculus with 9 samples.

Results

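Red blood cell genes were followed in a preparation of splenic dendritic cells (DC), cells that do not normally make red cell proteins. The 9 genes looked for were Alas2, Slc4a1, Epb42, Ermap, Tspo2, Klf1, Gata1, Epor and Ahsp, taken by symbol among the Affymetrix probe sets to which the platform annotation gives exactly 1 gene symbol. Of the 9, 8 were found, with 11 of the 20380 probe sets tested (8 of 12393 genes). Ahsp had no entry in that annotation and is not analysed here.

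RNA was measured in DC treated with TSA (trichostatin A, 3 arrays), treated with butyrate (3 arrays) or left untreated (3 arrays). Both compounds inhibit histone deacetylases, the enzymes that take acetyl groups off histones. All 9 arrays share their source: spleens of mice aged 6 to 8 weeks that bore B16 melanoma tumours making Flt3L, the growth factor that expands DC, with the cells taken on CD11c magnetic beads. The labels give no strain, dose or duration of treatment. They do not say whether replicates came from separate mice, so p-values measure only the spread between these arrays, which may be technical. In such bulk samples, fewer erythroid cells, less RNA per erythroid cell and changed RNA of these genes in the other cells cannot be told apart.

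Red cells are made from erythroblasts under erythropoietin, which acts through the receptor encoded by Epor. The transcription factors GATA1 and KLF1 switch on the genes of heme synthesis, of the globin chains and of the membrane with its skeleton. The mouse spleen makes red cells itself, more so under stress, and its red pulp macrophages clear old red cells.

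With TSA, 7 of the 8 measured erythroid genes fell and Gata1 was not called. After scaling to spike-ins, described next, 5 fell with TSA (19.4% of all genes did), as Alas2 and Epor lost their calls. With butyrate 6 fell, Alas2 rose and Gata1 was not called. After the same scaling Alas2 was at −0.198 with butyrate and not called, and Gata1 was called lower, as were 67.3% of all genes. The genes of the membrane and cholesterol traffic, Tspo2, Epb42, Slc4a1 and Ermap, changed most: their log2 changes ran from −1.14 to −0.79 with TSA and from −1.03 to −0.60 with butyrate. Klf1 and Epor with both treatments, and Alas2 with TSA, ran from −0.35 to −0.18. Each gene is counted by its brightest probe set, and a call is a limma adjusted p under 0.05 over all 20380 probe sets. Among all 12393 genes, 20.6% were called lower and 25.8% higher with TSA, and 24.5% were called lower and 32.7% higher with butyrate. Dim genes are seldom called. Among genes above the median level, fitted alone, 32.1% were called lower with TSA (2156 genes, with 2795 higher). With butyrate 39.3% of those genes were called lower (2640 genes, with 2629 higher). The median change of the 8 genes was −0.54 with TSA, against 0.032 over all genes, and −0.48 with butyrate, against 0.085 over all genes. All treated arrays lay below all untreated arrays for 7 of the 8 genes with TSA (23.9% of all genes did so) and for 6 of the 8 with butyrate (26.2%). Both treatments were set against the same untreated arrays.

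The deposited arrays had nearly equal medians, from 6.698 to 6.746. The hybridization spike-ins, control transcripts added after RNA labelling, had mean log2 levels of 10.61 ± 0.026 in TSA samples, 10.99 ± 0.057 in butyrate samples and 10.57 ± 0.083 in untreated samples (SD, n = 3). Shifting the arrays to equal spike-ins, called spike-in scaling below, set the median butyrate change of all genes at −0.333 in place of 0.085, and the median TSA change at −0.002 in place of 0.032. Butyrate values therefore stand relative to the bulk of genes, and spike-in scaling lowers each of them by the same amount. After it 67.3% of all genes were called lower with butyrate than untreated, which is the share to read list counts on that scale against. The 3′ minus 5′ difference of the beta-actin control probe sets, a sign of RNA integrity, was 0.641 ± 0.042 in TSA samples, 0.682 ± 0.040 in butyrate samples and 0.432 ± 0.066 in untreated samples (log2 units, SD, n = 3). Both treated means were above the untreated mean, and the part of this difference in the results was not tested.

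RefSeq promoter windows (GRCm38.p6, 250 bases before to 50 after the transcription start) were at hand for 7 of the 8 genes, all but Slc4a1. They were searched on both strands for the GATA factor motif, spelled AGATAA or AGATAG or TGATAA or TGATAG. A match lay in 5 of the 7 windows (Alas2, Epb42, Epor, Ermap and Klf1), against 29.8% of all 32851 windows of the table, and those of Tspo2 and Gata1 held none. The windows of 4 genes are shown because their RNA moved differently: Alas2 rose with butyrate on the deposited scale but not after spike-in scaling, while Epb42, Ermap and Tspo2 fell with both treatments. Each is written 5′ to 3′ on the strand of its gene, and capitals mark the motif, which in each case reads on the opposite strand.
Alas2, chrX:150547167-150547466, plus strand: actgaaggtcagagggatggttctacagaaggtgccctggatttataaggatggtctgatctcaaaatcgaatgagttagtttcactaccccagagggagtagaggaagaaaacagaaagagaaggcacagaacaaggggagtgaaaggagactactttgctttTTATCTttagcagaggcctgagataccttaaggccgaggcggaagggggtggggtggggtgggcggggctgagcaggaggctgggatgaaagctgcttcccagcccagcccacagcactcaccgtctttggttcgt
Epb42, chr2:121036828-121037127, minus strand: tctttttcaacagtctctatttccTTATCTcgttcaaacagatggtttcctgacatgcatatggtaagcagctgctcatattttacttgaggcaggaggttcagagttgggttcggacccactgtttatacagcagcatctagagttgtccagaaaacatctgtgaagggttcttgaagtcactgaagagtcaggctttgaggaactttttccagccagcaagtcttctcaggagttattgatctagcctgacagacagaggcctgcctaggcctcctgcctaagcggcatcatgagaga
Ermap, chr4:119189946-119190245, minus strand: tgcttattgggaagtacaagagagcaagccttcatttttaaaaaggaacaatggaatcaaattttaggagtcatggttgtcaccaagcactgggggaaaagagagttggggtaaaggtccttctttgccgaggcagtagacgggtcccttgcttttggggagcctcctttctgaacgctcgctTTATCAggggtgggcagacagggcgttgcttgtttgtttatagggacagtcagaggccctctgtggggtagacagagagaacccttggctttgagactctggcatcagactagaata
Tspo2, chr17:48451452-48451751, minus strand: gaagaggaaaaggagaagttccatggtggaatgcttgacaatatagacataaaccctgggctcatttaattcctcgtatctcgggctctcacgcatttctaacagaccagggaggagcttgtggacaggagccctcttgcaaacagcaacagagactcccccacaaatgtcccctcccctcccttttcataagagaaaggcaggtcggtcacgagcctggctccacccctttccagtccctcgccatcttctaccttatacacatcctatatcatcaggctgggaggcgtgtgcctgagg
Counted from the start, the capitals begin at −86 in Alas2, −226 in Epb42 and −67 in Ermap. A match is a description of letters, not a binding site. It was present in the windows of Alas2, Epb42 and Ermap and absent from that of Tspo2. Its part in the changes was not tested.

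Alas2 encodes the erythroid form of 5-aminolevulinate synthase, the first enzyme of heme synthesis. Its log2 levels were 10.31, 10.26 and 10.34 in TSA samples, 10.75, 10.65 and 10.70 in butyrate samples and 10.43, 10.45 and 10.56 in untreated samples. The groups did not overlap, with TSA lowest and butyrate highest. With TSA the change was −0.18 ± 0.055 (limma standard error, 3 arrays per group throughout; limma adjusted p = 0.0247). That call was lost after spike-in scaling (−0.211, limma adjusted p = 0.0731) and without untreated replicate 3, TSA replicate 1 or TSA replicate 2 (limma adjusted p = 0.0871, 0.0534 and 0.0907). Scaling to the poly-A spike-ins, control transcripts added before labelling, ended it too (−0.181, limma adjusted p = 0.647). With butyrate the change was 0.22 ± 0.055 (limma adjusted p = 0.00714), and it turned to −0.198 after spike-in scaling (limma adjusted p = 0.0519).

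Slc4a1 encodes band 3, the anion exchanger that is the main integral protein of the red cell membrane. Its brightest probe set read 11.27, 11.27 and 11.29 in TSA samples, 11.51, 11.54 and 11.59 in butyrate samples and 12.10, 12.09 and 12.23 in untreated samples. Every treated array lay below every untreated array, and the TSA arrays lay below the butyrate arrays. The level was 1.83-fold lower with TSA (−0.87 ± 0.054, limma adjusted p = 5.97e-07) and 1.51-fold lower with butyrate (−0.60 ± 0.054, limma adjusted p = 6.47e-06). A second probe set gave −1.01 ± 0.050 with TSA and −0.74 ± 0.050 with butyrate. The third stayed between 4.26 and 4.50 on all arrays, below the arrays' 25th percentiles of 4.97 to 5.10, and was not called (limma adjusted p = 0.446 with TSA and 0.625 with butyrate). It is too dim to set beside the other readings.

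Epb42 encodes protein 4.2, which helps tie band 3 to the membrane skeleton. It read 7.88, 7.72 and 7.98 in TSA samples, 7.86, 7.84 and 8.04 in butyrate samples and 8.90, 8.96 and 8.98 in untreated samples. The TSA and butyrate arrays overlapped each other and lay below all untreated arrays. Epb42 was 2.12-fold lower with TSA (−1.09 ± 0.078, limma adjusted p = 1.7e-06) and 2.05-fold lower with butyrate (−1.03 ± 0.078, limma adjusted p = 1.88e-06). Its dimmer probe set gave −0.84 ± 0.079 with TSA and −0.82 ± 0.079 with butyrate.

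Ermap encodes a red cell membrane protein of the immunoglobulin superfamily that carries the Scianna blood group in humans. Its levels were 8.77, 8.79 and 8.64 in TSA samples, 8.76, 8.64 and 8.78 in butyrate samples and 9.46, 9.56 and 9.54 in untreated samples. The treated groups overlapped each other and not the untreated group. Ermap was 1.73-fold lower with TSA (−0.79 ± 0.062, limma adjusted p = 3.16e-06) and 1.74-fold lower with butyrate (−0.80 ± 0.062, limma adjusted p = 2.24e-06).

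Tspo2 encodes an erythroid relative of the translocator protein TSPO that takes part in cholesterol traffic in maturing erythroblasts. It read 7.62, 7.66 and 7.66 in TSA samples, 7.85, 7.80 and 7.90 in butyrate samples and 8.67, 8.80 and 8.89 in untreated samples. The groups did not overlap, with TSA lowest and untreated highest. Tspo2 was 2.21-fold lower with TSA (−1.14 ± 0.061, limma adjusted p = 2.54e-07) and 1.92-fold lower with butyrate (−0.94 ± 0.061, limma adjusted p = 6.26e-07).

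**Figure D1:**
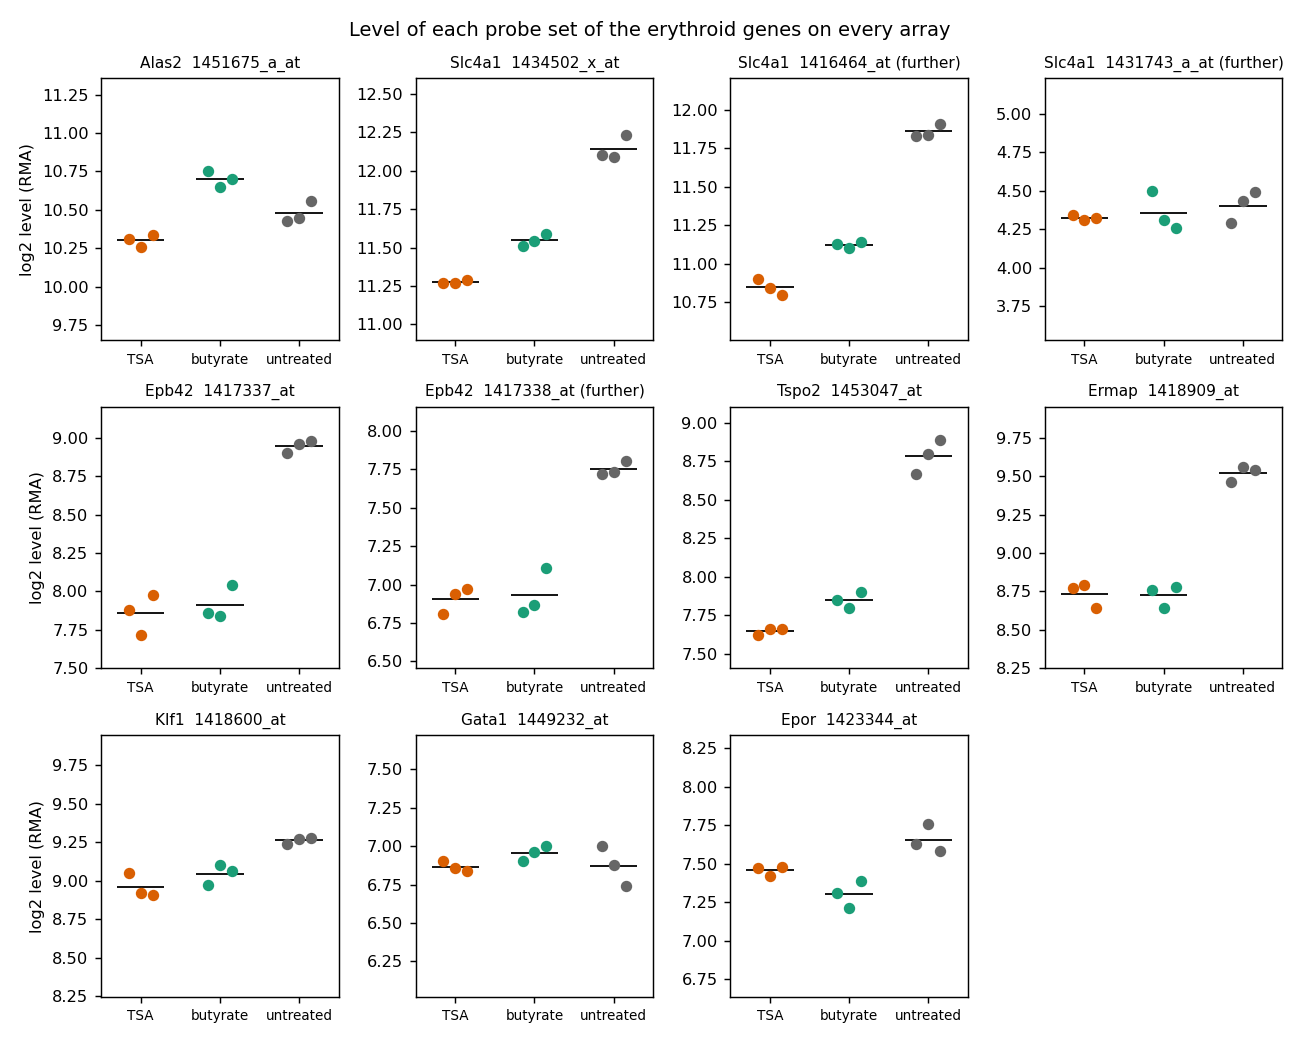
Log2 level (RMA, vertical axis, the same number of log2 units in every panel) of each of the 11 probe sets on TSA, butyrate and untreated arrays, from left to right. Points are arrays and lines are group means. For Tspo2, Ermap, Klf1, Epor, both sets of Epb42 and the 2 brighter sets of Slc4a1 all treated arrays lie below all untreated arrays. For Alas2 the butyrate arrays lie highest (mean change −0.198 after spike-in scaling).

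Klf1, the activator of adult beta-globin and of many red cell membrane genes, read 9.05, 8.92 and 8.91 in TSA samples, 8.97, 9.10 and 9.06 in butyrate samples and 9.24, 9.27 and 9.28 in untreated samples. The treated arrays overlapped each other and lay below the untreated arrays. The change was −0.30 ± 0.058 with TSA (limma adjusted p = 0.00166) and −0.22 ± 0.058 with butyrate (limma adjusted p = 0.00862). A repeated quantile normalization ended the call with butyrate (−0.133, limma adjusted p = 0.0731), and scaling to the poly-A spike-ins, which are added before labelling, ended the call with TSA (−0.303, limma adjusted p = 0.269).

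Gata1, the master regulator of the erythroid programme, is also used by megakaryocytes, mast cells and eosinophils. It read 6.90, 6.86 and 6.84 in TSA samples, 6.90, 6.96 and 7.0 in butyrate samples and 7.0, 6.88 and 6.74 in untreated samples. All 3 groups overlapped. The change was 0.00 ± 0.067 with TSA (95% interval −0.15 to 0.15) and 0.08 ± 0.067 with butyrate (95% interval −0.07 to 0.23). After spike-in scaling Gata1 was called lower with butyrate (−0.337, limma adjusted p = 0.00225). On that scale the median butyrate change of all genes was −0.333, and 67.3% of them were called lower. Gata1 thus moved there as the bulk of genes did.

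Epor encodes the erythropoietin receptor and read 7.47, 7.42 and 7.48 in TSA samples, 7.31, 7.21 and 7.39 in butyrate samples and 7.63, 7.76 and 7.58 in untreated samples. The groups did not overlap, and here butyrate was lowest. The change was −0.20 ± 0.065 with TSA (limma adjusted p = 0.0275) and −0.35 ± 0.065 with butyrate (limma adjusted p = 0.000999). The call with TSA was lost after spike-in scaling (−0.236, limma adjusted p = 0.0627) and without untreated replicate 2 or any of TSA replicates 1, 2 and 3 (limma adjusted p from 0.0528 to 0.102). Scaling to the poly-A spike-ins ended it too (−0.206, limma adjusted p = 0.561).

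Set directly against TSA, 3 of the 8 genes were higher with butyrate and 0 were lower by limma (1, Epor, at an unadjusted p under 0.05), where 14.3% of all genes were called higher and 19.1% lower. Alas2 differed by 0.40 ± 0.055 (limma adjusted p = 0.000641), Slc4a1 by 0.27 ± 0.054 (limma adjusted p = 0.0042) and Tspo2 by 0.20 ± 0.061 (limma adjusted p = 0.0309). After spike-in scaling these were 0.013, −0.11 and −0.18 and not called, and Epb42, Ermap, Klf1, Gata1 and Epor were called lower with butyrate instead, as were 76.8% of all genes, so the order of the treatments rests on the scaling. The call of Tspo2 was also lost without TSA replicate 1, 2 or 3 or butyrate replicate 1 or 3. The 95% intervals of the 5 genes not called were −0.12 to 0.23 for Epb42, −0.15 to 0.13 for Ermap, −0.05 to 0.21 for Klf1, −0.07 to 0.23 for Gata1 and −0.30 to −0.01 for Epor on the deposited scale. All butyrate arrays lay below all TSA arrays for Epor alone among the 8, as for 25.8% of all genes. The doses are unknown, so the values do not rank the compounds.

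**Figure D2:**
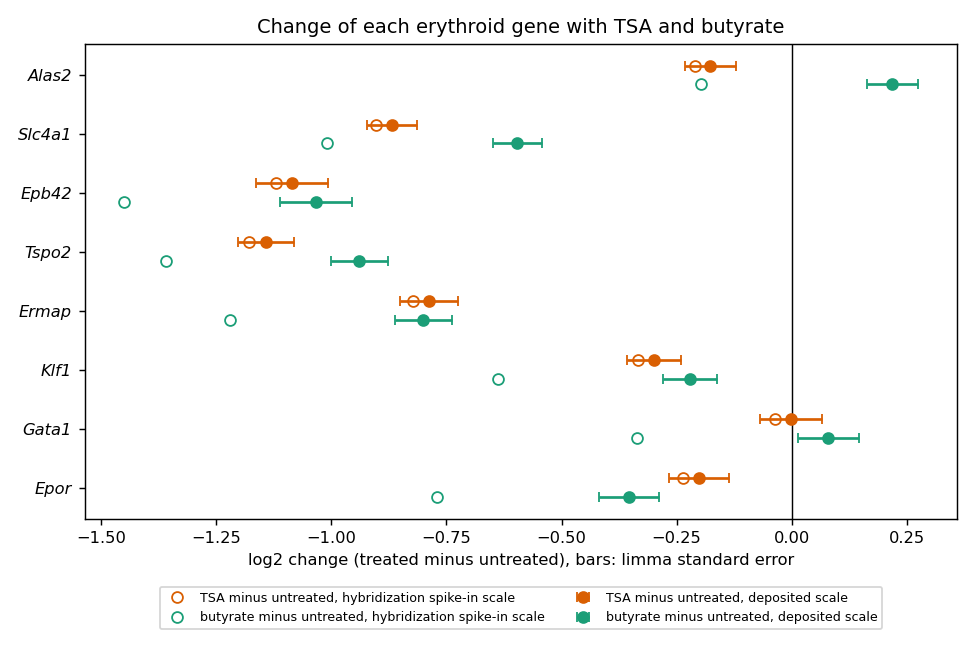
Log2 change (horizontal axis, treated minus untreated) of the 8 erythroid genes with TSA and butyrate, filled on the deposited scale with limma's standard error and open after hybridization spike-in scaling. Tspo2, Epb42, Slc4a1 and Ermap lie farthest left with TSA, and the open butyrate points lie left of the filled ones, which takes Alas2 and Gata1 from above to below 0. The median butyrate change of all genes moves likewise, from 0.085 to −0.333.

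Further genes were taken from lists by function. Among 13 other genes of the red cell membrane and its skeleton, 9 fell and 1 rose with TSA (median −0.37), and 6 fell and 3 rose with butyrate (median −0.15); after spike-in scaling 10 fell and 1 rose with butyrate. Gypc, which encodes glycophorin C and is not restricted to red cells, fell (−1.22 ± 0.055 with TSA, −1.50 ± 0.055 with butyrate). Kel, the Kell blood group protease, fell (−0.96 ± 0.087 with TSA, −0.90 ± 0.087 with butyrate), as did Icam4, an erythroblast adhesion molecule (−0.73 ± 0.079 with TSA, −0.84 ± 0.079 with butyrate), and the water channel gene Aqp1 (−0.64 ± 0.063 with TSA, −0.46 ± 0.063 with butyrate). Cd59a, a complement inhibitor of many cells, rose (0.54 ± 0.072 with TSA, 1.06 ± 0.072 with butyrate), by 0.64 with butyrate after spike-in scaling.

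The heme pathway was split. Among 7 genes other than Alas2, 3 fell and 2 rose with TSA (median −0.07), and 1 fell and 3 rose with butyrate (median 0.12); after spike-in scaling 5 fell and 0 rose with butyrate. Alas1, the first enzyme in most other cells, fell (−0.60 ± 0.052 with TSA, −0.29 ± 0.052 with butyrate). Fech, which inserts the iron, had the signs of Alas2 (−0.28 ± 0.052 with TSA, 0.18 ± 0.052 with butyrate), and like Alas2 it turned with butyrate after spike-in scaling, to −0.24. Alad, the second enzyme, rose (0.60 ± 0.051 with TSA, 0.52 ± 0.051 with butyrate) and stood at 0.10 with butyrate after spike-in scaling. Urod rose (0.36 ± 0.051 with TSA, 0.35 ± 0.051 with butyrate) and turned to −0.07 with butyrate there.

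Globin genes could be read for 6 of 9, and 4 further probe sets with several globin symbols were not used. Hbb-b1, Hbb-bs and Hbb-bt had no probe set with a single symbol. The values below therefore do not give the level or change of globin RNA as a whole. With TSA 0 of the 6 passed limma's test (and 0 at an unadjusted p under 0.05), and with butyrate Hba-a2 alone did (0.24 ± 0.070, limma adjusted p = 0.0143), turning to −0.18 after spike-in scaling. The list median was 0.00 with TSA and 0.17 with butyrate. After spike-in scaling 4 of the 6 were called lower with butyrate and 0 higher (median −0.25). The 24 genes of other organs, a guide to dim probe sets, had medians of 0.01 with TSA and 0.10 with butyrate. After spike-in scaling 14 of these 24 were called lower with butyrate and 0 higher (median −0.32). Hbb-b2, a beta-globin gene whose near-identical neighbour can share its probes, read 8.66, 8.59 and 8.60 in TSA samples, 8.81, 9.05 and 8.83 in butyrate samples and 8.81, 8.55 and 8.77 in untreated samples. Its butyrate and untreated arrays touched at 8.81 and its TSA and untreated arrays overlapped. Neither change was called as deposited (−0.10 ± 0.085 with TSA, 0.18 ± 0.085 with butyrate), and Hbb-b2 was called lower with butyrate after spike-in scaling (−0.23). A dimmer Hbb-b2 probe set was higher with butyrate on the deposited scale (0.41 ± 0.11, limma adjusted p = 0.00823). The embryonic genes Hbb-y, Hbb-bh1 and Hba-x and the alpha genes Hba-a1 and Hba-a2 had their highest level on any array at 5.68. The arrays' 25th percentiles were 4.97 to 5.10, and of these 5 genes only Hba-a2 was called on the deposited scale. All 5 lay near the median untreated level of the genes of other organs (5.04), so their changes cannot be told from those of dim probe sets. With butyrate the changes were 0.17 for Hbb-y, 0.18 for Hbb-bh1, 0.15 for Hba-x and 0.04 for Hba-a1 as deposited, and −0.25, −0.24, −0.26 and −0.38 in that order after spike-in scaling.

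Transcription factors that work beside GATA1 and KLF1 moved both ways. Among 12 such factors, 5 fell and 4 rose with TSA (median −0.12), and 6 fell and 5 rose with butyrate (median −0.08); after spike-in scaling 7 fell and 1 rose with butyrate. Nfe2, an activator of globin genes, fell (−1.04 ± 0.063 with TSA, −0.96 ± 0.063 with butyrate). Tal1, which forms a complex with GATA1, fell (−0.71 ± 0.11 with TSA, −0.94 ± 0.11 with butyrate), as did Myb, a factor of early progenitors (−0.85 ± 0.067 with TSA, −1.31 ± 0.067 with butyrate), and the corepressor gene Cbfa2t3 (−0.74 ± 0.054 with TSA, −0.94 ± 0.054 with butyrate). Gfi1b, a repressor required in erythroblasts, rose (0.73 ± 0.069 with TSA, 0.48 ± 0.069 with butyrate) and stood at 0.06 with butyrate after spike-in scaling. Gata2, which precedes GATA1 in development, was not called with TSA and rose with butyrate (0.11 ± 0.065 with TSA, 0.31 ± 0.065 with butyrate), turning to −0.11 after spike-in scaling.

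Among 9 genes that act with or downstream of Epor, 7 fell and 0 rose with TSA (median −0.44), and 7 fell and 1 rose with butyrate (median −0.42); after spike-in scaling 8 fell and 1 rose with butyrate. Most of them also serve other cytokine receptors. The survival gene Bcl2l1 (BCL-XL) fell (−0.84 ± 0.058 with TSA, −0.64 ± 0.058 with butyrate), as did Kit, the stem cell factor receptor gene (−0.84 ± 0.057 with TSA, −1.01 ± 0.057 with butyrate), and Jak2, the receptor's kinase gene (−0.40 ± 0.044 with TSA, −0.61 ± 0.044 with butyrate). Socs3, a feedback inhibitor, rose with butyrate and was not called with TSA (−0.09 ± 0.066 with TSA, 1.09 ± 0.066 with butyrate). Its level with butyrate differed from that with TSA by 1.18 ± 0.066 (limma adjusted p = 9.55e-06).

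Among 11 genes of iron handling, 3 fell and 3 rose with TSA (median 0.06), and 3 fell and 4 rose with butyrate (median 0.01); after spike-in scaling 6 fell and 0 rose with butyrate. Slc25a38, the mitochondrial carrier that supplies glycine for heme, fell (−0.91 ± 0.054 with TSA, −0.68 ± 0.054 with butyrate). Slc25a37 (mitoferrin) fell with TSA and was not called with butyrate (−0.40 ± 0.058 with TSA, −0.04 ± 0.058 with butyrate). Its level with butyrate was above that with TSA as deposited (0.35 ± 0.058, limma adjusted p = 0.00161). After spike-in scaling 0 of the 11 genes were called higher with butyrate than with TSA and 5 were lower, so that difference rests on the scaling. The transferrin receptor gene Tfrc rose (0.22 ± 0.047 with TSA, 0.48 ± 0.047 with butyrate) and stood at 0.06 with butyrate after spike-in scaling, while its 2 dimmer probe sets were not called.

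Among 13 other genes prominent in red cells, 8 fell and 4 rose with TSA (median −0.43), and 8 fell and 4 rose with butyrate (median −0.20); after spike-in scaling 9 fell and 4 rose with butyrate. Trim10 (−1.20 ± 0.059 with TSA, −1.01 ± 0.059 with butyrate) and Hemgn (−1.13 ± 0.046 with TSA, −1.32 ± 0.046 with butyrate), both tied to erythroid maturation, fell. Car1, a carbonic anhydrase abundant in red cells, read 8.80, 8.79 and 8.87 in TSA samples, 9.46, 9.34 and 9.45 in butyrate samples and 7.67, 7.81 and 7.83 in untreated samples. All treated arrays of Car1 lay above all untreated arrays, and it rose (1.05 ± 0.061 with TSA, 1.65 ± 0.061 with butyrate), with 1.23 for butyrate after spike-in scaling. Mgst3, a glutathione transferase also used by other cells, rose (0.90 ± 0.049 with TSA, 1.16 ± 0.049 with butyrate), with 0.74 for butyrate after spike-in scaling.

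**Figure D3:**
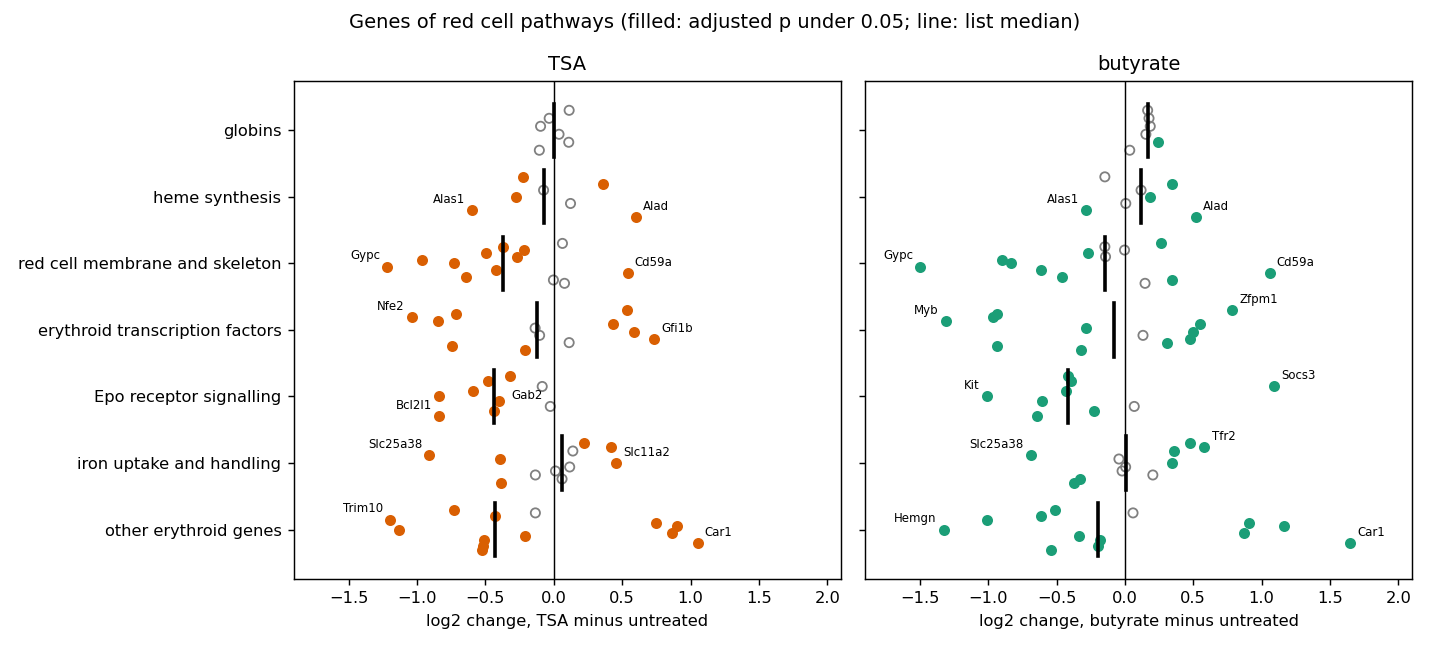
Log2 change (horizontal axes, TSA minus untreated on the left and butyrate minus untreated on the right, deposited scale) of every measured gene in 7 lists of red cell functions. Filled points passed an adjusted p under 0.05, open points did not, and vertical lines are list medians; the butyrate medians of all 7 lists lie below 0 after spike-in scaling.

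Among 7 relatives or partners of these genes that other cells use, 6 fell and 0 rose with TSA (median −0.30), and 6 fell and 1 rose with butyrate (median −0.38); after spike-in scaling 6 fell and 0 rose with butyrate. Tspo, the widely expressed relative of Tspo2, fell (−0.30 ± 0.051 with TSA, −0.45 ± 0.051 with butyrate). Tgm2, a transglutaminase related to protein 4.2, fell with both (−1.20 ± 0.055 with TSA, −0.18 ± 0.055 with butyrate), and Csf2rb, the beta chain of the IL-3 and GM-CSF receptors, fell likewise (−0.46 ± 0.055 with TSA, −0.86 ± 0.055 with butyrate).

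Markers of other cells were read on the same arrays. The 8 erythroid genes had a mean log2 level of 8.61 to 8.66 in TSA samples, 8.72 to 8.81 in butyrate samples and 9.18 to 9.23 in untreated samples. Of 8 red pulp macrophage markers 7 fell with each treatment, and 1 rose with TSA. Their mean level was 7.68 to 7.70 in TSA samples, 7.41 to 7.60 in butyrate samples and 8.65 to 8.80 in untreated samples. Spic, the factor needed to make these macrophages, fell (−2.73 ± 0.092 with TSA, −2.89 ± 0.092 with butyrate), as did the iron exporter gene Slc40a1 (−1.66 ± 0.072 with TSA, −1.84 ± 0.072 with butyrate). Hmox1, which breaks down heme, fell (−0.20 ± 0.060 with TSA, −0.73 ± 0.060 with butyrate). The part of these cells in the changes of the erythroid genes was not tested.

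Of 8 megakaryocyte and platelet markers 2 fell with each treatment and 3 rose with butyrate, while after spike-in scaling 5 fell and 0 rose with butyrate. Those that fell on the deposited scale were Ppbp (−3.38 ± 0.074 with TSA, −3.35 ± 0.074 with butyrate) and Pf4 (−0.79 ± 0.059 with TSA, −0.42 ± 0.059 with butyrate), both platelet chemokines. Their list had mean levels of 6.40 to 6.48 in TSA samples, 6.52 to 6.71 in butyrate samples and 6.90 to 6.95 in untreated samples, but its median change was −0.03 with TSA and 0.14 with butyrate, so the lower mean rests mostly on Ppbp. Among 9 markers of mast cells, basophils and eosinophils, 4 fell with TSA, while with butyrate 1 fell and 2 rose (7 fell and 0 rose after spike-in scaling). The 10 markers of conventional DC averaged 11.57 to 11.58 in TSA samples, 11.59 to 11.62 in butyrate samples and 12.02 to 12.07 in untreated samples. Their median change was only −0.29 with TSA and −0.17 with butyrate. The lower mean rests in large part on Ccr7 (−2.08 ± 0.048 with TSA, −2.01 ± 0.048 with butyrate). Of the 10 markers, 6 fell with each treatment and 1 rose with butyrate (9 fell and 0 rose after spike-in scaling). Itgax, which encodes the CD11c used for selection, was among those that fell (−0.99 ± 0.063 with TSA, −0.74 ± 0.063 with butyrate).

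Of 9 neutrophil markers 7 fell with TSA, and with butyrate 5 fell and 2 rose. Of 9 B cell markers 5 fell with TSA and 3 with butyrate, and of 7 T cell markers 4 fell with TSA and 1 with butyrate. Of 6 NK cell markers 3 fell with each treatment and 1 rose with butyrate. After spike-in scaling the markers that fell with butyrate were 9 of 9 for neutrophils, 9 of 9 for B cells, 7 of 7 for T cells and 5 of 6 for NK cells, and 0 rose. On that scale 67.3% of all genes and 14 of the 24 genes of other organs were also called lower. Those shares stand beside these counts and those of the marker lists above. The B and T cell lists were dim, with untreated means of 6.39 to 6.41 and 6.48 to 6.58, below the arrays' medians. Cell cycle genes, which erythroblasts share with any dividing cell, were split: of 15, 7 fell and 5 rose with TSA, and 5 fell and 4 rose with butyrate (12 fell and 0 rose after spike-in scaling). Their part in the results was not tested.

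**Figure D4:**
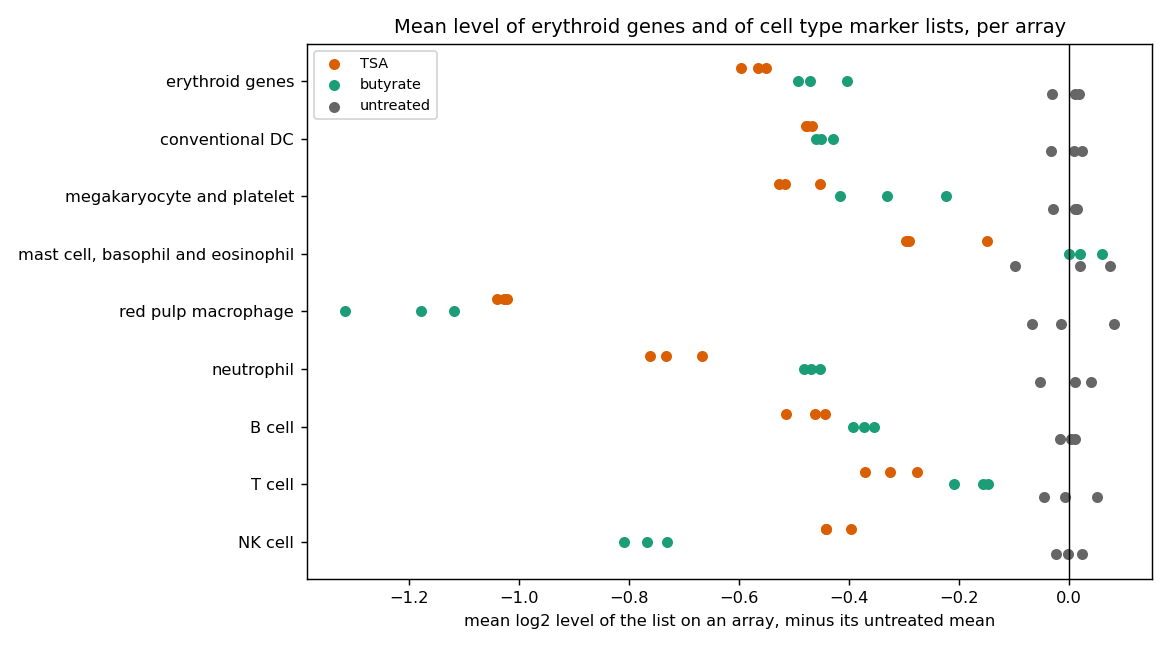
Mean log2 level of the 8 erythroid genes and of 8 lists of cell type markers on each TSA, butyrate and untreated array, minus the list's untreated mean (horizontal axis, deposited scale). All treated arrays lie below all untreated arrays in each list except for mast cell, basophil and eosinophil markers with butyrate. The red pulp macrophage list lies farthest below. The megakaryocyte and platelet mean is lowered mostly by Ppbp, at −3.38 with TSA and −3.35 with butyrate. The conventional DC mean is lowered in large part by Ccr7, at −2.08 with TSA and −2.01 with butyrate. Median butyrate changes were −0.29 for neutrophil, −0.20 for B cell, −0.06 for T cell and −0.61 for NK cell markers. The largest falls in those lists were Camp (−2.02), Fcrla (−1.97), Cd28 (−0.88) and Klrk1 (−2.58). With TSA the 4 medians were −0.61, −0.31, −0.33 and −0.35 in the same order.

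The genes whose profile was most like the mean profile of the 8 erythroid genes were Sat1, Clk1, Degs1, Nck2 and Mdp1. Likeness was the mean absolute difference over the 9 arrays between centred log2 levels, 0.0309 for Sat1 and 0.0367 for Mdp1. Sat1, a polyamine acetyltransferase gene, fell (−0.63 ± 0.047 with TSA, −0.48 ± 0.047 with butyrate), as did the splicing kinase gene Clk1 (−0.54 ± 0.046 with TSA, −0.49 ± 0.046 with butyrate). None of the 5 stood on a red cell list used here.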

How the data were processed

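Total RNA from CD11c-selected splenic DC was hybridized to 9 Affymetrix arrays, 3 per group. The authors deposited RMA values on a log2 scale for 22690 probe sets, according to the submitters' processing notes. Which program was run, in which version, is not stated in the sources used here. Replicates correlated at r = 0.996 to 0.9982 across probe sets, and 3 arrays a group limit the precision. The platform annotation gave 1 symbol to 20380 probe sets, several to 691 and none to 1555, and 64 were controls. Probe sets with 1 symbol were fitted together with limma 3.58.1 in R 4.3.3 (a mean per group, eBayes, 6 residual and 3.8 prior degrees of freedom), with Benjamini-Hochberg adjustment over all of them and calls at 0.05. Where a gene had several probe sets, the one with the highest mean log2 level stood for it. As a guide to dim probe sets, 24 genes of other organs had untreated means from 3.38 to 10.19 (median 5.04), and 1 was called lower with TSA and 5 higher with butyrate (14 lower and 0 higher after hybridization spike-in scaling). The calculation was tested on simulated data.

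Named were all probe sets of the erythroid genes, genes among the 4 called members of a list with the largest change in a comparison, a set of genes and all single-symbol globin genes whatever their values, and the 5 most alike profiles. Some genes this rule allows are left out. The genes and lists were chosen with earlier results of these data known. Alternatives were other scalings (14 hybridization or 27 poly-A spike-in probe sets, quantile normalization), a filter on dim probe sets, other probe set and threshold rules, a replicate block and each array left out.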

Additional observations from a re-analysis of the deposited data

How the results depend on the processing

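The number of erythroid genes called was 7 of 8 with TSA, 7 with butyrate and 3 for butyrate against TSA. It was 4 with TSA and 1 for butyrate against TSA after poly-A scaling, and 5, all lower, for butyrate against TSA after hybridization spike-in scaling. With butyrate that hybridization scaling also called 7, all lower, with Gata1 in place of Alas2. Hybridization scaling called 67.3% of all genes lower with butyrate and 76.8% for butyrate against TSA. Poly-A scaling called 11.4% of all genes lower with TSA and 24.4% for butyrate against TSA. The median butyrate change of all genes was −0.333 after hybridization and −0.227 after poly-A scaling. Of all genes called with butyrate, 57.1% were higher as deposited, 9.87% after hybridization and 16.4% after poly-A scaling; for butyrate against TSA the shares were 42.8%, 1.03% and 1.11%. Hybridization and then poly-A scaling turned the butyrate change to −0.198 and −0.093 for Alas2 and to −0.337 and −0.232 for Gata1. For butyrate against TSA they gave −0.33 and −0.255 for Epb42, −0.301 and −0.225 for Gata1, −0.305 and −0.23 for Klf1, −0.11 and −0.035 for Slc4a1, and −0.18 and −0.105 for Tspo2. Repeated quantile normalization gave 0.051 for Ermap there. Why the spike-ins of the butyrate arrays were brighter was not tested. Leaving out each array in turn gave 5 to 7 genes called with TSA, 7 to 7 with butyrate and 2 to 3 for butyrate against TSA. Over these fits Gata1 ran from −0.068 to 0.059 with TSA, and for butyrate against TSA Epb42 ran from −0.019 to 0.114 and Ermap from −0.058 to 0.032.

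Same-numbered arrays did not deviate together in every pair (correlations of −0.101 to 0.33). Differently numbered arrays were not set beside them, so these values cannot tell whether the numbers pair the samples. With a replicate block 6 genes were called with TSA, 7 with butyrate and 3 for butyrate against TSA, since Epor lost its call with TSA (−0.202, limma adjusted p = 0.0542).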
